A study of Mus musculus with 15 samples.

Results

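Macrophages at the borders of the brain and microglia inside it can be told apart in whole tissue by the transcripts that each cell type carries. For the newborn cerebellum of Cxcr4 KO mice, 10 genes were read, 5 of border macrophages (Mrc1, Pf4, Cd163, Lyve1 and F13a1) and 5 of microglia (Cx3cr1, P2ry12, Tmem119, Aif1 and Csf1r), out of 16593 genes measured. They are markers of the 2 cell types, and they were listed with earlier results of these data known. Of the 10 genes, 9 had a probe and 12 probes reported them, 6 for border macrophage genes and 6 for microglia genes. Csf1r, the receptor for colony stimulating factor that both cell types need to survive, had no probe under its name in the platform annotation and was not analysed here.

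The arrays compared 7 Cxcr4 KO with 8 WT cerebella, taken on postnatal day 1 from mice labelled C57BL/6, with 1 array per sample. KO mice carried loxP-flanked Cxcr4 alleles on both chromosomes together with Sox1-Cre, which expresses Cre throughout the neural tube. WT mice were littermates without Cre. The labels number the KO samples 2 to 8 and the WT samples 1 to 8, and the methods call them biological replicates, so that p-values measure the spread between these samples.

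Microglia live in the parenchyma of the central nervous system, where they take up dying cells and prune synapses. Border macrophages sit in the meninges, in the spaces around blood vessels and in the choroid plexus, where they clear proteins and debris. Both cell types arise from yolk sac progenitors and not from the neural tube. A whole cerebellum carries its meninges as far as the dissection left them, and in such bulk RNA fewer cells of a type and less RNA per cell cannot be told apart.

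Signals are given on a log2 scale after every array was set to a common median of 6.81, so that a difference of 1 is a 2-fold difference in signal. Cxcr4, the deleted gene, lay between 6.42 and 6.86 on the KO arrays and between 8.77 and 9.76 on the WT arrays. Arrays numbered 1 to 4 (3 KO, 4 WT) and 5 to 8 (4 KO, 4 WT), called here the first and the second set, differed from each other within a genotype. Among WT arrays alone 8.9% of all genes differed between the 2 array sets at an adjusted p under 0.05 (limma), and the labels do not say what separates them. The split into these sets was chosen with earlier results of these data known. Xist, which is transcribed from the inactive X chromosome, was high on all 4 WT arrays and on none of the 3 KO arrays numbered 1 to 4, so that sex and genotype cannot be told apart within that set. Over all 15 arrays Xist differed by -1.23 between KO and WT (unadjusted p = 0.0025, adjusted p = 0.370, limma). Sex was therefore unevenly spread over the genotypes there as well. Barhl1, a granule cell factor and the 1 gene of 12 cerebellar neuron genes that passed the test, was higher in KO by 0.50 (adjusted p = 0.0137, limma). Of all genes, 0.127% passed an adjusted p under 0.05 between KO and WT over the 15 arrays, 0.0783% lower and 0.0482% higher in KO.

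The upstream sequences of the 3 border macrophage genes that fell on arrays 5 to 8, Mrc1, Pf4 and F13a1, are shown with that of the microglia gene Cx3cr1. RefSeq starts (GRCm38.p6) were at hand for 7 of the 10 genes. The 250 bases before the start lie at chr2:14229164-14229413 on the plus strand for Mrc1, chr5:90772185-90772434 on the plus strand for Pf4, chr13:37050245-37050494 on the minus strand for F13a1 and chr9:120068297-120068546 on the minus strand for Cx3cr1. Capitals mark GAGGAA, the core of binding sites of ETS factors such as the myeloid factor PU.1, read on either strand (TTCCTC on the opposite one).
Mrc1: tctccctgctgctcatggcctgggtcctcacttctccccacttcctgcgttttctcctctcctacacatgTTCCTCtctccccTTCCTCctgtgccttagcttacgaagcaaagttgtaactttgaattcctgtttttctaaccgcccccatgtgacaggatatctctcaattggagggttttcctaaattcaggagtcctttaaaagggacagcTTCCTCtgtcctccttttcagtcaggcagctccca
Pf4: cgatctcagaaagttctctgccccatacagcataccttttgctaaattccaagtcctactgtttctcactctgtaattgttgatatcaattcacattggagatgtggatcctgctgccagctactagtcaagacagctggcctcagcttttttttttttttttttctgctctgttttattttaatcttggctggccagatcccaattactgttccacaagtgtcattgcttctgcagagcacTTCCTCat
F13a1: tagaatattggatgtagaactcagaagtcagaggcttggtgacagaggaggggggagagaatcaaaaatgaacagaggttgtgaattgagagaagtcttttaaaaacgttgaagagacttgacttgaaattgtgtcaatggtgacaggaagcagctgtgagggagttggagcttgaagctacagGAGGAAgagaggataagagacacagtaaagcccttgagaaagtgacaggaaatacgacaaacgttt
Cx3cr1: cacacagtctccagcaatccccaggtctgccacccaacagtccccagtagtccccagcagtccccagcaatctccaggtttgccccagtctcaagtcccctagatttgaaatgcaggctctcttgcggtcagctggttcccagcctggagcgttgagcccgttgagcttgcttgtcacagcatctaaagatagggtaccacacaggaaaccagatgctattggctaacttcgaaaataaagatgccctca
The Mrc1 window held 3 matches, the Pf4 and F13a1 windows 1 each and the Cx3cr1 window none. The microglia gene Aif1 also held 1 match, while Cd163, P2ry12 and a second F13a1 window, at another start of the gene, held none. Of all 32851 windows of this length 23.3% hold GAGGAA on either strand. The MAF motif TGCTGA, found in 16.1% of all windows, and the GATA motif AGATAA, found in 9.99%, were in none of the members' windows, so that no 2 of the motifs overlapped there. A match of letters is a description and not a site of binding.

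Over all 15 arrays the border macrophage genes lay lower on KO than on WT arrays by 0.11 to 0.85 on the log2 scale, and the microglia genes lay between 0.17 lower and 0.11 higher. None of the 9 genes passed an adjusted p under 0.05 (limma, adjusted over 16593 genes), against 0.127% of all genes, and in none were the KO arrays all lower than the WT arrays, as 0.0663% of all genes were. At an unadjusted p under 0.05 Mrc1, Pf4 and F13a1 lay lower, 3 of 5 border macrophage genes and 0 of 4 microglia genes, where 2.63% of all genes did. The median difference was -0.81 over the border macrophage genes and -0.03 over the microglia genes, beside 0.01 over all genes. The plot of signals by array shows that this average covers 2 unlike sets of arrays.

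**Figure D1:**
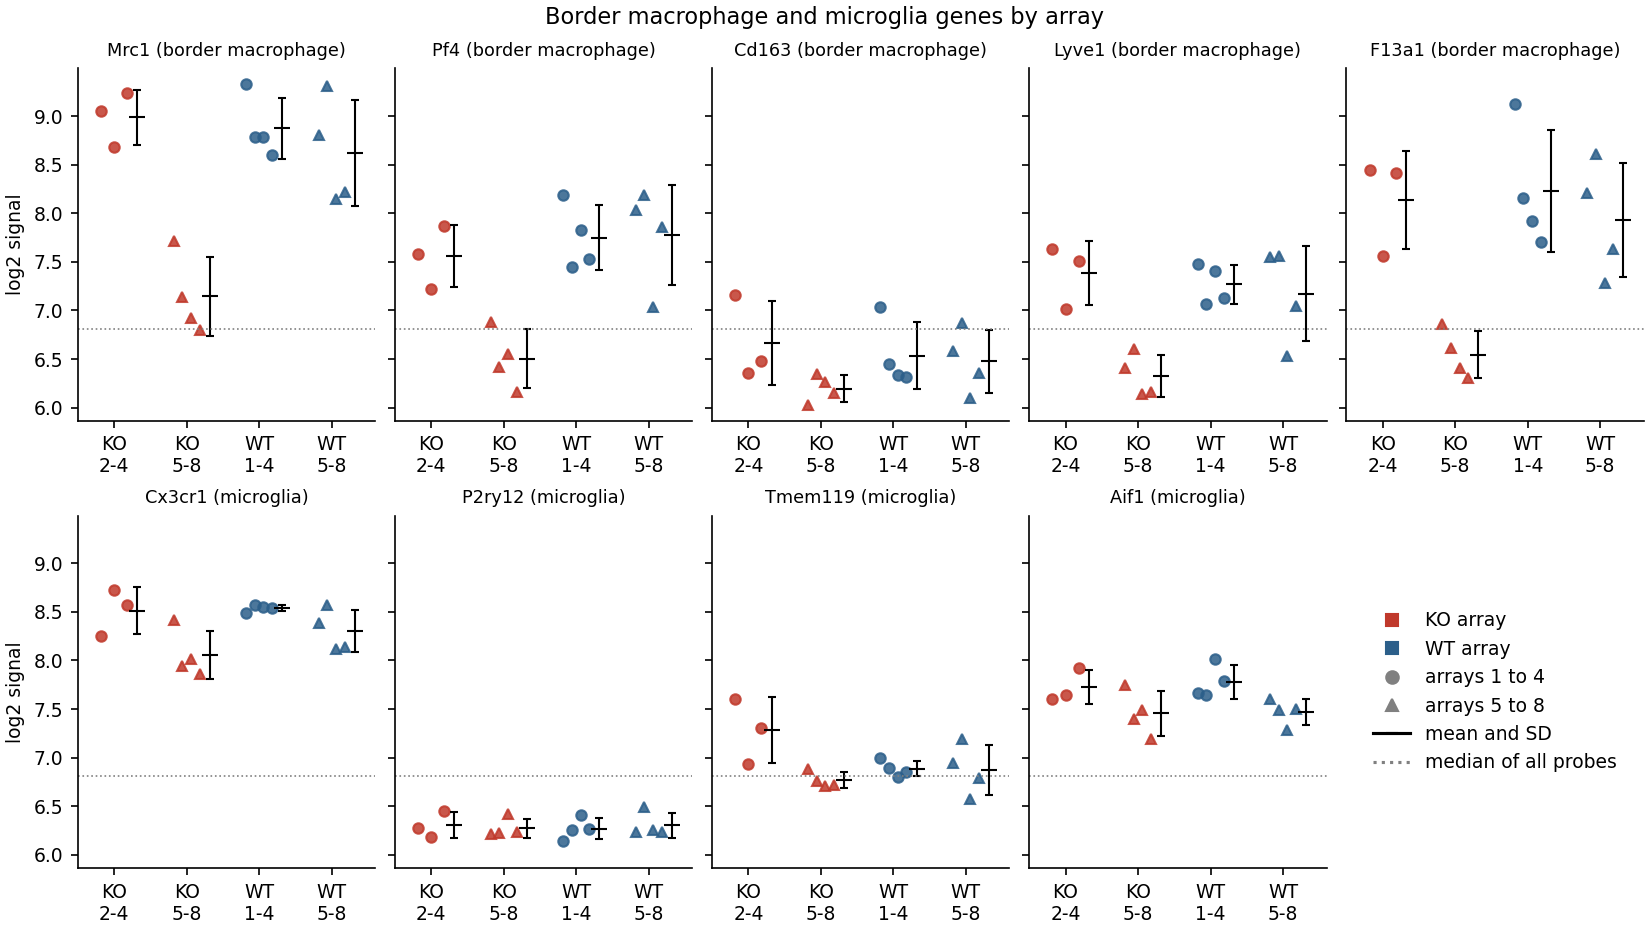
Log2 signal of 9 genes on every array (y axis), with KO arrays (red) left of WT arrays (blue), numbers 1 to 4 as circles and 5 to 8 as triangles, mean and SD in black, and the median of all probes dotted. The 4 KO arrays numbered 5 to 8 lie below all other arrays for Mrc1, Pf4 and F13a1, and the microglia genes show no such gap.

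Mrc1, the mannose receptor with which border macrophages take up glycoproteins, had a lowest, median and highest log2 signal of 6.80, 7.72 and 9.24 on the KO arrays, against 8.14, 8.79 and 9.33 on the WT arrays. The KO arrays fell into a high and a low part, and the high part overlapped the WT arrays. The difference was -0.81 ± 0.33 (SE, n = 7 KO and 8 WT, adjusted p = 0.761 by limma, two-sided exact permutation p = 0.0670). In the second set the KO signals were 7.72, 7.14, 6.92 and 6.80, against WT signals of 8.80, 9.31, 8.14 and 8.22. No KO array reached any WT array there, and the difference passed the test (-1.47 ± 0.24 SE on the log2 scale, n = 4 each, adjusted p = 0.0216 by limma). In the first set the KO signals were 9.05, 8.68 and 9.24 and the WT signals 9.33, 8.78, 8.79 and 8.60, which overlapped (difference 0.11 ± 0.17 SE, adjusted p = 0.887 by limma).

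Pf4, platelet factor 4, is a chemokine of megakaryocytes that border macrophages also make. Its lowest, median and highest signal were 6.16, 6.89 and 7.86 on the KO arrays, against 7.03, 7.84 and 8.19 on the WT arrays. Of the 7 KO arrays 4 were under every WT array, and 6 under the WT mean. The difference over all arrays was -0.81 ± 0.22 (SE, adjusted p = 0.316 by limma, two-sided exact permutation p = 0.0124). Arrays 5 to 8 gave 6.89, 6.42, 6.56 and 6.16 in KO, against 8.04, 8.19, 7.03 and 7.86 in WT. The groups did not overlap (-1.28 ± 0.21 SE, adjusted p = 0.0246 by limma). Of these 4 KO signals 3 were below the common median, and no background was subtracted, so that the log2 difference understates a fall to such a dim signal. Arrays 1 to 4 overlapped, with 7.58, 7.23 and 7.86 in KO and 8.19, 7.45, 7.82 and 7.53 in WT (-0.19 ± 0.18 SE, adjusted p = 0.808 by limma). Of 13 platelet and megakaryocyte genes other than Pf4, 10 were measured, none passed the test in either array set or over all arrays, and their summed signal was 1566 to 1610 on KO and 1642 to 1819 on WT arrays of 5 to 8. These summed signals did not overlap between KO and WT. The mean relative log2 signal of the 10 genes did overlap there, at 0.0015 to 0.040 on KO and -0.00056 to 0.038 on WT arrays. Gp5, a platelet glycoprotein, and Ppbp, a platelet chemokine, differed there by 0.13 and 0.03 (adjusted p = 0.680 and 0.954 by limma). Vwf was the 1 of the 10 that was lower there at an unadjusted p under 0.05, as 5.15% of all genes were. It differed by -0.42 ± 0.14 (SE, adjusted p = 0.339 by limma). Vwf lay at 8.58 to 8.92 on KO and 8.83 to 9.56 on WT arrays of 5 to 8, and bright genes weigh most in a summed signal. Of the 10 genes 3 were below 0 there, and the median was 0.03.

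F13a1, the catalytic subunit of a clotting factor that crosslinks proteins and is made by tissue macrophages, had 6.30, 6.86 and 8.45 as its lowest, median and highest signal on KO arrays, against 7.29, 8.04 and 9.13 on WT arrays. The difference over all arrays was -0.85 ± 0.32 (SE, adjusted p = 0.699 by limma, two-sided exact permutation p = 0.0508). KO arrays 5 to 8 had 6.86, 6.61, 6.41 and 6.30, below WT arrays 5 to 8 at 8.20, 8.61, 7.29 and 7.63. The difference there was -1.39 ± 0.23 (SE, adjusted p = 0.0216 by limma), with 3 of the 4 KO signals below the common median, as for Pf4. In the first set the KO signals of 8.45, 7.56 and 8.41 lay among WT signals of 9.13, 8.16, 7.92 and 7.71 apart from 1 KO array below them (-0.09 ± 0.31 SE, adjusted p = 0.964 by limma).

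Lyve1, a hyaluronan receptor of border macrophages and of lymphatic endothelium, had a lowest, median and highest signal of 6.14, 6.60 and 7.63 on KO arrays, against 6.54, 7.26 and 7.56 on WT arrays. KO arrays 5 to 8 had 6.41, 6.60, 6.14 and 6.17 and WT arrays 5 to 8 had 7.55, 7.56, 6.54 and 7.05, so that 3 of 4 KO arrays were under every WT array. All 4 KO signals there and the WT signal of 6.54 were below the common median. The difference there was -0.84 ± 0.19 (SE, adjusted p = 0.103 by limma, two-sided exact permutation p = 0.0571), and over all arrays -0.44 ± 0.21 (SE, adjusted p = 0.881 by limma). The groups overlapped in the first set, at 7.02 to 7.63 in KO and 7.06 to 7.48 in WT. Of 7 lymphatic endothelial genes 6 were measured and none passed the test in any of these comparisons. Reln and Prox1, which are also made by cerebellar neurons, differed by 0.20 and 0.02 on arrays 5 to 8 (adjusted p = 0.538 and 0.970 by limma). Pdpn was the 1 of the 6 that was lower there at an unadjusted p under 0.05, as 5.15% of all genes were. It differed by -0.23 ± 0.10 (SE, adjusted p = 0.469 by limma). Of the 6 genes 2 were below 0 there, and the median was 0.05.

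Cd163, the scavenger receptor for haemoglobin bound to haptoglobin, gave the smallest difference of the 5 border macrophage genes. Its signal was above the common median on only 3 of 15 arrays, at 6.03 to 7.16 on KO and 6.10 to 7.04 on WT arrays. The groups overlapped throughout, with a difference of -0.11 ± 0.15 over all arrays (SE, adjusted p = 0.993 by limma) and of -0.28 ± 0.14 on arrays 5 to 8 (adjusted p = 0.551 by limma). A second Cd163 probe was below the common median on every array and differed by -0.03 ± 0.06 (SE).

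Taking arrays 5 to 8 alone, 3 of the 9 genes, Mrc1, Pf4 and F13a1, fell in KO, where 0.223% of all genes did (0.271% in either direction). The KO and WT arrays of the set did not overlap in the same 3 genes, with KO lower, as in 1.94% of all genes, and the two-sided exact permutation test gave p = 0.0286 for each, the smallest value that 4 arrays against 4 allow. The genes and the array sets were both chosen with earlier results of these data known, so that these p-values give no independent support. The 3 genes also went up and down together and are not 3 separate results. On arrays 1 to 4 none of the 9 genes passed, beside 0.115% of all genes. The difference of the genotype effect between the array sets was itself tested and passed for no member (limma, genotype by array set). It was -1.59 ± 0.34 for Mrc1 (SE, adjusted p = 0.146), -1.30 for F13a1 (adjusted p = 0.313), -1.09 for Pf4 (adjusted p = 0.271) and -0.96 for Lyve1 (adjusted p = 0.266). That test called 0 of 16593 genes, while at an unadjusted p under 0.05 it had 4 border macrophage genes and 1 microglia gene, Tmem119, among the 5.53% of genes with a more negative difference on arrays 5 to 8. With array weights it called 132 genes, Mrc1 and Pf4 among them.

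Which genes passed on arrays 5 to 8 changed when single arrays were left out. Without KO replicate 6, 7 or 8 or without WT replicate 5 none of the 9 genes passed, although Mrc1 stayed between -1.66 and -1.24, F13a1 between -1.60 and -1.16 and Pf4 between -1.52 and -1.14 whichever array was left out. Without WT replicate 6 or 8 Pf4 did not pass, and without KO replicate 5 or WT replicate 7 Lyve1 passed as well. None of the 9 passed on unnormalized values or with trend and robust settings in limma.

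**Figure D2:**
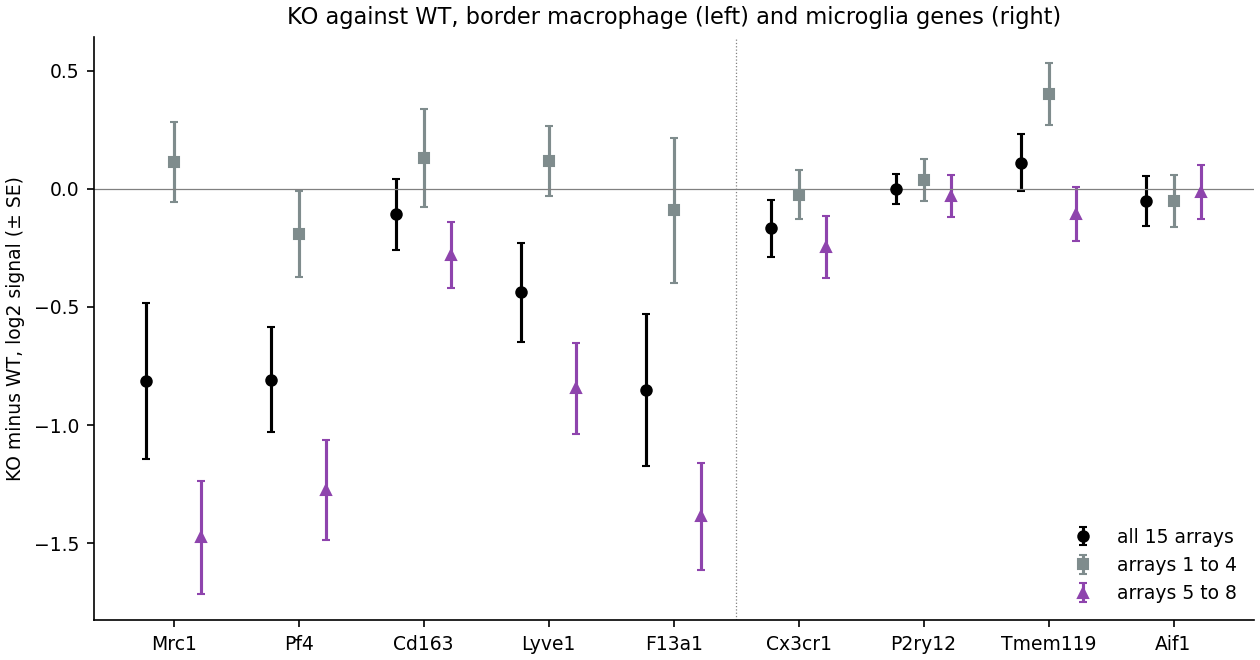
KO minus WT difference in log2 signal (y axis, limma coefficient with SE) of the 5 border macrophage genes and 4 microglia genes over all arrays (black), arrays 1 to 4 (grey) and arrays 5 to 8 (purple). Mrc1, Pf4 and F13a1 lie at -1.47, -1.28 and -1.39 on arrays 5 to 8 and between -0.19 and 0.11 on arrays 1 to 4, while the microglia genes stay within 0.40 of 0.

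Among the microglia genes Cx3cr1, the fractalkine receptor with which microglia sense a neuronal chemokine, had a lowest, median and highest signal of 7.86, 8.25 and 8.72 on KO arrays, against 8.12, 8.52 and 8.57 on WT arrays. KO arrays 5 to 8 had 8.42, 7.94, 8.02 and 7.86 and WT arrays 5 to 8 had 8.39, 8.57, 8.12 and 8.14. Of these KO arrays 3 were under every WT array and 1 was among them, and the difference of -0.25 ± 0.13 did not pass (SE, adjusted p = 0.593 by limma). Over all arrays it was -0.17 ± 0.12 (SE, adjusted p = 0.970 by limma).

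Aif1, which encodes the actin-binding protein Iba1 of microglia and other macrophages, lay at 7.19 to 7.92 on KO arrays and 7.29 to 8.02 on WT arrays. The groups overlapped in both array sets, and the difference was -0.05 ± 0.11 over all arrays and -0.02 ± 0.11 on arrays 5 to 8 (SE, adjusted p = 0.996 and 0.979 by limma). A second Aif1 probe differed by -0.04 ± 0.07 and another one, below the common median on every array, by 0.01 ± 0.07 (SE).

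Tmem119, a membrane protein of mature microglia, had signals of 7.61, 6.94 and 7.31 on KO arrays 2 to 4, against 6.99, 6.89, 6.81 and 6.85 on WT arrays 1 to 4. In the second set it had 6.89, 6.76, 6.71 and 6.72 in KO and 6.94, 7.19, 6.58 and 6.80 in WT. The difference was 0.40 ± 0.13 in the first set (SE, adjusted p = 0.460 by limma, two-sided exact permutation p = 0.0571) and -0.11 ± 0.12 in the second (adjusted p = 0.817 by limma). P2ry12, the ADP receptor that guides microglial processes, was below the common median on all 15 arrays, at 6.19 to 6.45 in KO and 6.14 to 6.50 in WT. It was the 1 member that reached that median on no array, and its difference over all arrays was 0.00067 (adjusted p = 0.99983 by limma).

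For each array the signals of a group of genes, each relative to its mean over the 15 arrays, were averaged. The mean of the border macrophage genes was -0.32 ± 0.69 on KO arrays and 0.28 ± 0.39 on WT arrays (SD, n = 7 and 8). The mean of the microglia genes was -0.01 ± 0.20 on KO arrays and 0.01 ± 0.13 on WT arrays. The border macrophage mean minus the microglia mean was -0.31 ± 0.51 on KO arrays, with a range of -0.79 to 0.45, and 0.27 ± 0.32 on WT arrays, with a range of -0.13 to 0.82. In the second set it averaged -0.69 ± 0.12 in KO and 0.27 ± 0.32 in WT, and all 4 KO arrays lay below the 11 other arrays. In the first set it averaged 0.20 ± 0.28 in KO and 0.27 ± 0.37 in WT, and the groups overlapped. These means carry no p, since the genes were chosen with earlier results of these data known.

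**Figure D3:**
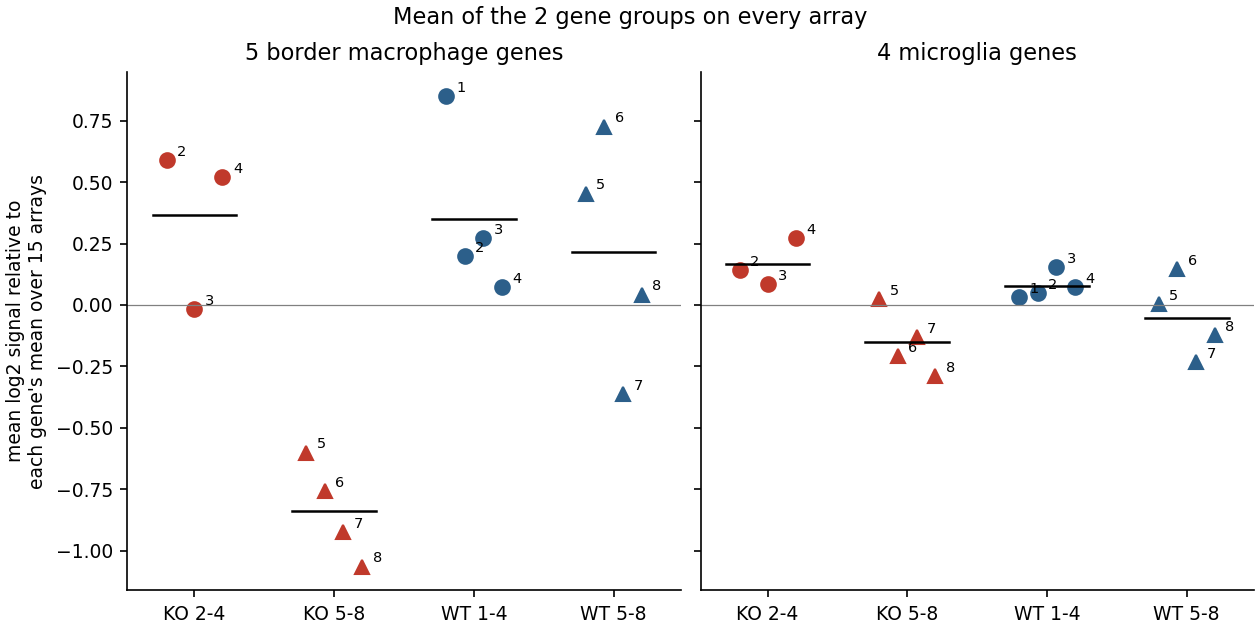
Mean relative log2 signal (y axis) of the border macrophage genes (left) and the microglia genes (right) on every array, with KO arrays red and WT arrays blue, the array number beside each point and the mean of each set as a line. KO arrays 5 to 8 average -0.84 for the border macrophage genes and -0.15 for the microglia genes, beside 0.21 and -0.05 on WT arrays 5 to 8.

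Within KO the array sets also differed. On KO arrays 5 to 8, set against KO arrays 2 to 4, 6 of the 9 genes were lower at an adjusted p under 0.05 (limma), where 2.71% of all genes were. The log2 difference was -1.84 for Mrc1 (adjusted p = 0.00073), -1.59 for F13a1 (adjusted p = 0.0050), -1.05 for Lyve1 (adjusted p = 0.0047) and -1.05 for Pf4 (adjusted p = 0.0099). For the microglia genes Tmem119 and Cx3cr1 it was -0.52 and -0.45 (adjusted p = 0.0229 and 0.0375, limma). In 6 of the 9 genes, Cd163 included and Cx3cr1 not, no KO array of 5 to 8 reached any KO array of 2 to 4, as in 5.19% of all genes. Between the same sets of WT arrays none of the 9 genes passed, where 2.22% of all genes were lower on arrays 5 to 8, and Mrc1 differed by -0.25 (adjusted p = 0.535, limma). This comparison shares its KO arrays with the one between genotypes.

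Among WT arrays the border macrophage genes varied more than the microglia genes, with SDs of 0.31 to 0.59 against 0.11 to 0.22 on the log2 scale. Mrc1, Pf4, Lyve1 and F13a1 went up and down together. Over the 15 arrays the 6 pairs among them had Pearson's r between 0.91 and 0.97, and over the 8 WT arrays between 0.75 and 0.94. The 20 pairs of a border macrophage gene with a microglia gene had r between 0.07 and 0.81, with a median of 0.56. Over the 8 WT arrays these 20 pairs had r between -0.02 and 0.88, with a median of 0.44. The 6 pairs of microglia genes had r between 0.15 and 0.75 with a median of 0.31 over all arrays, Cx3cr1 with Aif1 being the highest, and between 0.16 and 0.67 over WT arrays. Tmem119 went with the border macrophage genes among WT arrays, with r of 0.82 to 0.88 for the 5 of them, against 0.67 with Cx3cr1, 0.37 with P2ry12 and 0.16 with Aif1, although it counts in the microglia mean. These values describe 15 arrays that share genotype and array set, and they carry no p.

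The genes whose signals over the 15 arrays were most like the border macrophage mean were Angpt2 (r = 0.98), Itga11, Slc22a6, Sidt1, Ranbp3l, Nupr1, Foxc1, Cp, Gja1 and Fcna (r = 0.96). Angpt2 is an angiopoietin that acts on blood vessels, Itga11 a collagen-binding integrin subunit, Slc22a6 an organic anion transporter of the meninges and Foxc1 a forkhead factor of meningeal fibroblasts. Gja1 encodes a connexin and Fcna a ficolin that is made by macrophages. The genes most like the microglia mean, Slc52a3 (r = 0.91), Itga1, Ppic, C2, Tmem64, Fxyd5, Mpv17, Aqp4, Abca9 and Mgp (r = 0.86), shared no gene with that list.

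Markers of meningeal fibroblasts moved with the border macrophage genes. All 19 were measured, none was at 0, and on arrays 5 to 8 their summed signal on the linear scale was 3442 to 8798 on KO and 7134 to 17700 on WT arrays, against 11520 to 15660 on KO and 9953 to 14660 on WT arrays of 1 to 4. Over all arrays none of the 19 passed (limma). On arrays 5 to 8 the meningeal transporters Slc6a13 (-2.82, adjusted p = 0.0315) and Slc22a6 (-2.17, adjusted p = 0.0198), the proteoglycan Lum (-1.82, adjusted p = 0.0273) and the collagen Col1a1 (-1.82, adjusted p = 0.0402) fell in KO (limma), and all 19 differences were below 0, with a median of -0.62 beside 0.02 for all genes. On arrays 1 to 4 the median was 0.18 and none passed.

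**Figure D4:**
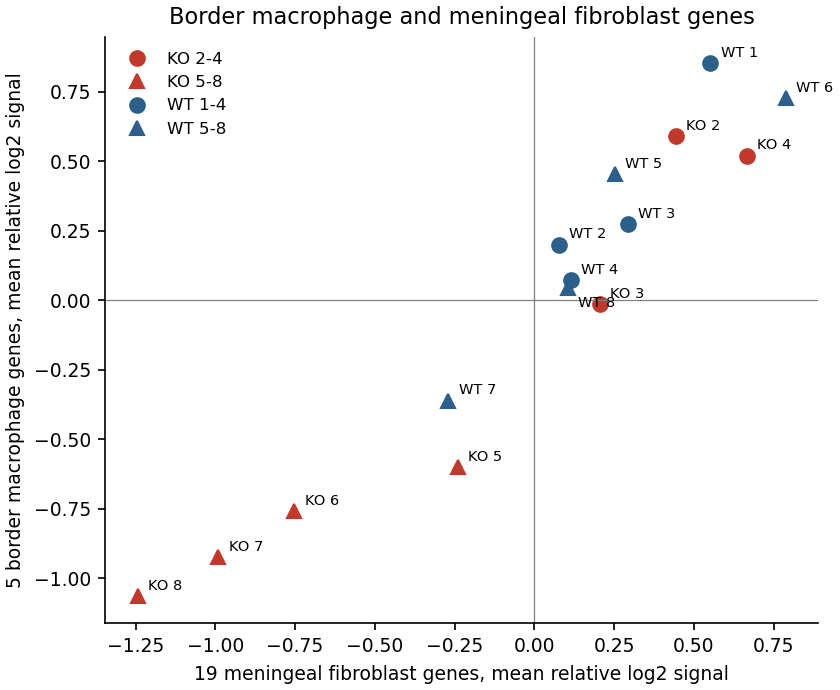
Mean relative log2 signal of the border macrophage genes (y axis) against that of 19 meningeal fibroblast genes (x axis), 1 point per array, with KO arrays red, WT arrays blue, numbers 1 to 4 as circles and 5 to 8 as triangles. KO arrays 6, 7 and 8 lie lowest on both axes, at -0.75 to -1.24 for the meningeal genes, and WT array 7 lies at -0.27 and -0.36.

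The border macrophage mean followed the meningeal mean with r = 0.96 (Spearman's rho = 0.94) over the 15 arrays, and with r = 0.94 without KO replicates 7 and 8. In arrays 1 to 4 r was 0.82, in arrays 5 to 8 it was 0.97, and over KO and WT arrays taken apart 0.96 and 0.94. With the mean of 13 pericyte and smooth muscle genes it had r = 0.94, and with the mean of 14 endothelial genes 0.79. The microglia mean had r = 0.84 with the meningeal mean, 0.77 with the border macrophage mean and 0.91 with the mean of the genes shared by myeloid cells. Its r with the meningeal mean was 0.60 in arrays 1 to 4, 0.81 in arrays 5 to 8, 0.97 over KO arrays and 0.73 over WT arrays. After the mean of each genotype and array set was subtracted, r with the meningeal mean was 0.87 for the border macrophage mean and 0.86 for the microglia mean. All are descriptions with no p, and the part of the meningeal RNA in the result for Mrc1, Pf4 and F13a1 was not tested.

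Choroid plexus also holds border macrophages, and its abundant transcript Ttr was high on some arrays and low on others. In the second set Ttr was 15.87 on KO array 5 and 7.17 to 8.59 on the other KO arrays, against 15.60 and 15.82 on WT arrays 6 and 8 and 9.61 and 9.28 on WT arrays 5 and 7. Mrc1 was 7.72 on the KO array with high Ttr, against 9.31 and 8.22 on the WT arrays with high Ttr. On the arrays with low Ttr it was 7.14, 6.92 and 6.80 in KO, against 8.80 and 8.14 in WT. The arrays with high Ttr hold only 1 KO array here, and the part of choroid plexus RNA in the result was not tested further than by a covariate. With Ttr as a covariate on arrays 5 to 8 the difference was -1.27 for Mrc1 (adjusted p = 0.0079), -1.07 for Pf4 (adjusted p = 0.0079) and -1.23 for F13a1 (adjusted p = 0.0097, limma). Over all arrays the border macrophage mean had r = 0.21 with the mean of 9 measured choroid plexus genes, none of which passed the test. The lowest p of these were those of Otx2, a homeobox factor of the choroid plexus (-0.13, adjusted p = 0.991), and Folr1, a folate receptor (0.36, adjusted p = 0.996, limma). Otx2 lay at 10.46 to 11.24 on KO and 10.53 to 11.19 on WT arrays, and so did not show the wide range of Ttr. The median of the 9 genes on arrays 5 to 8 was -0.53, and all 9 were below 0 there, as were 7163 of all 16593 genes.

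Xist on arrays 5 to 8 was high on KO array 7 and on WT arrays 7 and 8. Mrc1 was 6.92 on that KO array, against 8.14 and 8.22 on those WT arrays. On the arrays with low Xist it was 7.72, 7.14 and 6.80 in KO, against 8.80 and 9.31 in WT. With Xist as a covariate on arrays 5 to 8 Mrc1 differed by -1.69, F13a1 by -1.60, Pf4 by -1.40 and Lyve1 by -1.02, and all 4 passed (adjusted p = 0.0014, 0.00099, 0.0069 and 0.0056, limma). Over all genes this fit also called more than the 45 called without the covariate, as counted in the closing section. Only KO array 7 had high Xist among these KO arrays, so that the covariate rests on few arrays.

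Of 20 further border macrophage genes 18 were measured. Over all arrays none passed and the median difference was -0.11. On arrays 5 to 8 Fcna alone passed (-1.09 ± 0.16 SE, adjusted p = 0.0163, limma), at 6.09 to 6.45 on KO arrays, below 7.03 to 7.87 on WT arrays. The median of the 18 was -0.18, and 6 of them were lower at an unadjusted p under 0.05, where 5.15% of all genes were. Of the 18 genes 13 were below 0 there, beside 7163 of all 16593 genes. Only 8 of the 18 were above the common median on at least 8 arrays, so that many were dim. Ednrb, the endothelin receptor B that glia also express, had the lowest p of the list over all arrays (-0.22 ± 0.06 SE, adjusted p = 0.312, limma).

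Of 16 further microglia genes 15 were measured and none passed in either array set or over all arrays. The median differences were -0.04 over all arrays and -0.06 on arrays 5 to 8. On arrays 5 to 8, 3 were lower at an unadjusted p under 0.05, as 5.15% of all genes were. Over all arrays Sparc, a matrix protein that vessels also make, and Cst3, a protease inhibitor, had the lowest p of the list. There they differed by -0.24 and 0.14 (adjusted p = 0.796 and 0.927, limma). On arrays 5 to 8 the differences were -0.51 and 0.04 (adjusted p = 0.145 and 0.938, limma). Of 26 genes that microglia and other myeloid cells share 24 were measured and none passed, with medians of -0.03 and -0.09. In the second set 17 of the 24 were below 0, and 6 were lower and 1 higher at an unadjusted p under 0.05. Of all 16593 genes 7163 were below 0 there, and 855 were lower and 720 higher at that p. The first set went the other way, with a median of 0.07 and 6 of the 24 below 0. At that p 0 were lower and 6 higher in the first set, beside 608 lower and 819 higher of all genes. Cd53, a tetraspanin of leukocytes, and Cyba, a subunit of the phagocyte oxidase, had the lowest p over all arrays (0.19 and -0.23, adjusted p = 0.563 and 0.869, limma). Of 14 genes of phagocytic microglia of the early postnatal brain 13 were measured, none passed, and the medians were 0.02 and -0.02. On arrays 1 to 4 their median was 0.07, and 0 were lower and 4 higher at an unadjusted p under 0.05. Gpnmb, a glycoprotein of phagocytic myeloid cells, and Cd9, a tetraspanin, had the lowest p of that list (0.37 ± 0.10 and 0.18 ± 0.07 SE, adjusted p = 0.344 and 0.699, limma). The 7 antigen presentation genes gave medians of 0.02 and 0.03 and none passed. H2-DMa and H2-DMb1, which load peptides on class II molecules, differed by 0.10 and -0.05 over all arrays (adjusted p = 0.978 and 0.992, limma).

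**Figure D5:**
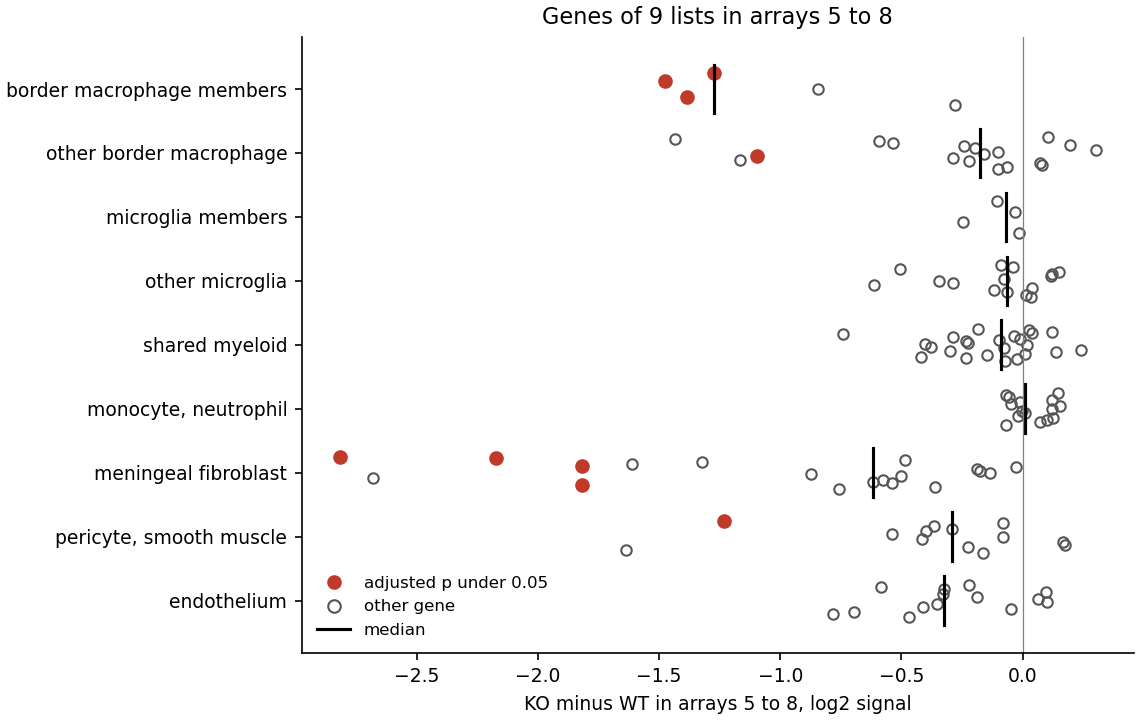
KO minus WT difference in log2 signal on arrays 5 to 8 (x axis) of every measured gene of 9 lists, 1 point per gene, filled red at an adjusted p under 0.05, with the median of a list as a black bar. Mrc1, Pf4 and F13a1 are the red points among the border macrophage members, Fcna that of the other border macrophage genes, 4 red points are meningeal fibroblast genes and 1 is Vtn of the pericyte list, and the microglia and shared myeloid lists have none.

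None of 15 measured monocyte and neutrophil genes, 9 lymphocyte genes or 7 erythroid genes passed over all arrays or on arrays 5 to 8, where their medians were 0.01, 0.05 and 0.04. The neutrophil genes Elane and Ngp differed by 0.13 and 0.16 on arrays 5 to 8 (adjusted p = 0.653 and 0.717), and the lymphocyte genes Nkg7 and Cd79a by 0.17 and 0.05 (adjusted p = 0.589 and 0.903, limma). Of the erythroid genes Slc4a1, the anion exchanger of red cells, and Alas2, which starts haem synthesis, differed by -0.50 and -0.41 there (adjusted p = 0.372 and 0.507, limma). They were the 2 of 7 that were lower at an unadjusted p under 0.05, where 5.15% of all genes were. Of the vessel genes Vtn, which pericytes make, fell on arrays 5 to 8 (-1.23, adjusted p = 0.0482, limma), 1 of 13 pericyte and smooth muscle genes, and none of 14 endothelial genes passed. The medians of both lists lay below 0 there. They were -0.29 for the pericyte and smooth muscle genes (11 of 13 below 0) and -0.33 for the endothelial genes (11 of 14 below 0). Over all 16593 genes the median was 0.02, and 7163 were below 0. In each list 8 genes were lower at an unadjusted p under 0.05, as 5.15% of all genes were. Mylk, a myosin kinase of smooth muscle, and Kcnj8, a potassium channel of pericytes, differed by -0.54 and -0.42 (adjusted p = 0.0906 and 0.112, limma). Tek, an endothelial receptor for angiopoietins, and Egfl7, a protein secreted by endothelium, differed by -0.58 and -0.78 (adjusted p = 0.0527 and 0.123, limma).

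Of 11 genes of growth factors, chemokines and their receptors that act on macrophages Cxcr4 alone passed. The ligands of Csf1r, Csf1 and Il34, differed by -0.10 and -0.08 over all arrays (adjusted p = 0.954 and 0.996, limma), and Cx3cl1, the ligand of Cx3cr1, by 0.01. Tgfb1, the factor that keeps microglia in their mature state, lay at 6.56 to 7.16 on KO arrays and 7.04 to 7.62 on WT arrays, with 6 of 7 KO arrays under every WT array (-0.28 ± 0.09 SE, adjusted p = 0.494, limma). Its difference was -0.28 on arrays 1 to 4 and -0.30 on arrays 5 to 8. Cxcl12, the ligand of Cxcr4 and a product of meningeal fibroblasts, lay at 9.74 to 10.99 in KO and 10.25 to 11.58 in WT, with a difference of -0.20 on arrays 1 to 4 and -1.02 on arrays 5 to 8 (adjusted p = 0.803 and 0.123, limma). Il34 was lower by 0.81 on KO arrays 5 to 8 than on KO arrays 2 to 4 (adjusted p = 0.0046, limma). Between the same sets of WT arrays it was lower by 0.32 (adjusted p = 0.177, limma). On arrays 5 to 8 Il34 differed by -0.27 and Csf1 by -0.16 between KO and WT (adjusted p = 0.452 and 0.569, limma). For Csf1 all 4 KO arrays lay under every WT array there, as in 1.94% of all genes.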

How the data were processed

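Cerebellar RNA of 7 KO and 8 WT mice on postnatal day 1 was hybridised to Illumina MouseRef-8 v2 BeadChips, 1 array per sample, grouped by the genotype in the labels. The authors extracted signals with GenomeStudio and deposited, per the file headers, 2 tables of 25697 probes. In the first the authors deposited linear probe intensities, not normalized between arrays. The other holds the log2 values that the authors made from it at a median of 6.84 per array, and it served as an alternative. Detection p-values were not used, array medians were 97.28 to 122.9 in KO and 101.2 to 120.8 in WT, and precision is limited by how many arrays there are.

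Intensities were log2 transformed and shifted to a common array median. Symbols came from the platform annotation (23978 probes with 1 symbol, 1719 with none, 0 with several), updated with a RefSeq table of GRCm38.p6 that matched 23962 probes. The brightest probe stood for each of 16593 genes. KO and WT were compared with limma 3.58.1 in R 4.3.3 (lmFit, eBayes), two-sided, at a threshold of 0.05 after Benjamini-Hochberg adjustment across genes, over all arrays, within arrays 1 to 4 and 5 to 8, and as a genotype by array set interaction. Single members were also tested by exact permutation of the array labels (6435, 35 and 70 splits), 9 genes in each of the 3 sets of arrays, with no adjustment over these tests. Python 3.11.15 (with pandas 2.3.3, numpy 2.4.6 and scipy 1.17.1) gave the remaining values and matplotlib 3.10.9 the figures. Scripts were tested on simulated data.

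The members, the lists and the split into array sets were chosen with earlier results of these data known. Besides the members, the text names for each list the genes past the threshold over all genes, or otherwise the 2 with the lowest p, the 10 genes most correlated with each group mean, and the ligands Csf1, Il34, Cx3cl1, Tgfb1 and Cxcl12. Fcna, Slc6a13, Slc22a6, Lum, Col1a1 and Vtn are named as passing on arrays 5 to 8, and of these Slc6a13, Col1a1 and Vtn fall outside this rule and were chosen after their values were seen. Vwf and Pdpn, named as lower there at an unadjusted p under 0.05, also fall outside the rule and were chosen after their values were seen. Alternatives were quantile and no normalization, normexp with an offset of 50, the authors' table, a filter on dim probes, the mean of probes, a replicate block, an array set block, Xist or Ttr as covariates, trend and robust settings of eBayes, array weights, and leaving out each array.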

Additional observations from a re-analysis of the deposited data

Results flagged for a closer look

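The highest or lowest array of a gene was compared with the others of its group. Cd163 on KO replicate 2 was 7.16, while the other 6 KO arrays lay between 6.03 and 6.48. P2ry12 on KO replicate 7 was 6.42 among KO arrays 5 to 8, where the others lay between 6.21 and 6.24. On WT replicate 6 P2ry12 was 6.50 among WT arrays 5 to 8, where the others lay between 6.23 and 6.25. Of 55 groups of arrays checked, 3 held such an array, and chance gives about 1 in 20. Both genes have signals below the common median on most arrays.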

How the results depend on the processing

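The number of arrays and 2 unlike array sets limit these results. Over all arrays 21 genes passed, 35 with the array set as a block, 45 on arrays 5 to 8 alone and 13 with Xist as a covariate. None of the 9 members passed over all arrays under any alternative or with any array left out, and 3 passed on arrays 5 to 8 alone. The genotype by array set test called 0 genes, 132 with array weights (2 members), 4 with trend and robust settings, and 0 to 254 with 1 array left out (0 to 1 members, Mrc1 without KO replicate 5). On arrays 5 to 8, 45 genes passed, 3 without normalization (0 members), 298 with array weights, 137 with Xist and 71 with Ttr as a covariate, and 3 to 367 with 1 array left out (0 to 4 members). With trend and robust settings 0 members passed. Lyve1 joined the 3 members with array weights and with Xist. The causes were not tested.

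Same-numbered KO and WT arrays deviated together with r between -0.20 and 0.39 over 7 pairs, 3 of them above 0.1, and 1 array correlated best with its own number, so that the numbers were not taken as pairs. With the replicate number as a block 94 genes and 4 members passed on arrays 5 to 8, Lyve1 being the fourth.

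The border macrophage mean minus the microglia mean, -0.58 between KO and WT, was -0.074 on arrays 1 to 4 and -0.95 on arrays 5 to 8, and -0.70 to -0.50 with 1 array left out. Over all arrays Mrc1, Cd163 and Lyve1 changed sign on arrays 1 to 4 (0.11, 0.13 and 0.12), and Tmem119 on arrays 5 to 8 (-0.11) and with Xist (-0.071). P2ry12 changed sign with quantile normalization (-0.017), normexp (-0.0027), the replicate block and the same arrays without it (both -0.020), on arrays 5 to 8 (-0.030) and with Xist (-0.019), and ranged from -0.027 to 0.031 with 1 array left out. Aif1 ranged from -0.11 to 0.011. In the interaction Aif1 changed sign without normalization (-0.042) and with array weights (-0.026), and ranged from -0.059 to 0.14 with 1 array left out, and P2ry12 from -0.12 to 0.0071. On arrays 5 to 8 Aif1 changed sign with quantile normalization (0.020), the mean of its probes (0.0096) and Ttr (0.074), and ranged from -0.11 to 0.074 with 1 array left out, and P2ry12 from -0.080 to 0.034. None of the reversed values passed the test.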
